A study of Drosophila melanogaster with 2 samples.

Results

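*Oamb*, *Octbeta2R*, *Nox*, *Mmp2* and *Timp* are genes of ovulation in *Drosophila*, where the follicle cells around a finished egg break open in answer to octopamine. They were chosen by name, as the rows with these symbols in both deposited gene tables, and are 5 of 13942 genes. All 5 had UMIs (unique molecular identifiers, each counting 1 captured transcript) in both libraries. They are described here in the mature follicle cells, in the other cell classes of the ovary, and between 1 and 6 weeks of age.

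In flies, octopamine from nerve endings on the ovary binds Oamb, a receptor on mature follicle cells that raises intracellular calcium. This activates Mmp2, a matrix metalloproteinase that breaks down the follicle cells over the posterior end of the egg, and Timp is the secreted inhibitor of this class of enzyme. Nox, an NADPH oxidase, makes superoxide in mature follicle cells, which the extracellular dismutase Sod3 turns into the hydrogen peroxide that rupture also needs. Octbeta2R, a second octopamine receptor, signals through cyclic AMP and is known for its role in the oviduct epithelium.

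The study asked how the ovary, and its follicle cell lineage above all, differs between young and old females. Whole ovaries of *w1118(x);;* females were dissociated 1 week or 6 weeks after the females eclosed and run as 1 droplet single-cell library per age. Both groups had the same genotype, carried no transgene and received no treatment, and females were kept together with males. Anterior structures were not enriched, since per the labels ovaries at 6 weeks were fragile and per the methods the step lost cells of old ovaries.

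The study labels quality plots by age and replicate, but 1 matrix per age was used here, in which replicates could not be separated. There was thus no spread between replicates and no test of age was possible. The intervals given are exact 95% intervals that cover counting error only, and age cannot be told apart from library or dissociation. Of 33317 barcodes at 1 week and 20224 at 6 weeks, 9131 and 9878 passed the filters, with 118721990 and 147732187 UMIs. The filters thus kept 27.4% of barcodes at 1 week and 48.8% at 6 weeks. The median share of mitochondrial UMIs was 42.9% and 15.7% over all barcodes, and 6.18% and 4.42% in the cells kept. In both libraries together, 178 barcodes were shared, 26 of them among the cells kept. Levels are CPM, the UMIs of a gene per 1000000 UMIs summed over the cells of a class. The term "class" is used for clusters named from marker genes, and clusters that no list of markers could name are called by a leading gene.

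The mature follicle-like class was 1 cluster of 112 cells at 1 week (1.23% of cells, 1.01 to 1.47) and 379 cells at 6 weeks (3.84%, 3.47 to 4.23). The 5 genes and the listed ovulation genes played no part in the clustering. It carried 5 of 8 mature follicle markers, among them *Ilp8*, a relaxin-like peptide made by mature follicle cells, and the transcription factors *sim* and *ftz-f1*. Of the other markers, *shd* had 0 UMIs in the class at both ages, *Fcp3C* had 2 UMIs at each, and *peb* did not count as raised. The markers were not all particular to the class. The abd-A cluster (*sim*, *Ance* and *Diap1*) and the Hr4 cluster (*peb*, *ftz-f1* and *shd*) each had 3 of the 8 raised. Among others, *sim* was also raised in the stan and Lsd-1 clusters and Muscle-like cells, and *ftz-f1* in the stan cluster and Escort-like cells. Cells at 6 weeks were placed by their neighbours at 1 week, and a median of 100% of those neighbours lay in the class. The cells of the class held a median of 4202 UMIs at 1 week and 5866 at 6 weeks, with a median mitochondrial share of 10.7% and 7.55%. Without the limit of 20% on mitochondrial UMIs the class had 255 and 490 cells.

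At 1 week, 5 of the 112 cells stood apart from the rest. Between 50.6% and 82.0% of their UMIs came from the 11 listed eggshell (chorion) genes, against a limit of 10% set after seeing the data and at most 0.503% in the other cells of the class, and they held 376290 of the class's 956323 UMIs (39.3%). No cell of the class at 6 weeks was of this kind, where the highest chorion share was 3.55%. In these 5 cells *Mmp2* had 0 UMIs, *Oamb* 28, *Octbeta2R* 14, *Timp* 16 and *Nox* 70. Leaving them out gave 107 cells at 1 week (1.17%, 0.961 to 1.41) with a median of 4094 UMIs, and the values below are given with and without them where they differ.

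*Oamb*, the calcium-linked octopamine receptor (FBgn0024944, minus strand of 3R, 20689018 to 20714577 in BDGP6.54), was found in few cells. In the mature follicle-like class it had 68 UMIs at 1 week, 71.1 CPM (55.2 to 90.1), and 185 UMIs at 6 weeks, 61.1 CPM (52.6 to 70.6). Without the chorion-rich cells the level at 1 week was 69.0 CPM (49.3 to 93.9) from 40 UMIs. Summed over all other cells it was 3.18 CPM at 1 week and 3.72 at 6 weeks, so the class lay 22.3-fold (17.0 to 29.0) and 16.4-fold (13.8 to 19.4) higher. The class was not alone in this. The stan cluster, 643 and 682 cells led by *stan*, had 97.2 CPM of *Oamb* at 1 week and 91.4 at 6 weeks. Its *sim* and *ftz-f1* were also raised, but *Ilp8* was not among its markers. Lower levels were found in Muscle-like cells (34.5 CPM at 1 week, 20.7 at 6 weeks), the abd-A cluster (20.6 and 29.7) and the FSCs + pFCs-like class, the stem cells and early follicle cells (13.8 and 18.6). Muscle-like cells had the highest value of these at 1 week and the abd-A cluster at 6 weeks. The intervals of Muscle-like cells and the abd-A cluster overlapped at both ages. That of the FSCs + pFCs-like class lay below the highest at 1 week (9.27 to 19.9 against 24.7 to 47.0). It also did so at 6 weeks (14.3 to 23.7 against 24.2 to 36.2). In Early-Mid FCs-like cells, a broad class of 10 clusters that made up most of both libraries, it was 0.59 CPM at 1 week and 0.56 at 6 weeks. Clusters 4, 7 and 17 of that class have a marker of another follicle list (*Yp2*, *sn* and *CadN*) and none of their own among their leading genes, so its values are given at each age but not compared between ages.

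Per cell, *Oamb* was found in a minority of the class. A UMI was present in 17 of 107 mature follicle-like cells at 1 week (15.9%, 9.54 to 24.2) and in 86 of 379 at 6 weeks (22.7%, 18.6 to 27.2). In germ cells-like cells, which served as the background of free RNA, the shares were 0.935% and 1.15%, with median depths of 6853 and 6132 UMIs. After each cell was thinned to 1000 UMIs, the shares in the mature class were 5.61% and 2.37%, against 0% (up to 3.39%) and 1.15% in germ cells-like cells. No order of the ages can be read from them. At 1 week the 10 cells with the most *Oamb* held 82.5% of its 40 UMIs, and no cell of either age held more than 9 once the chorion-rich cells were left out.

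Among whole classes and clusters, *Octbeta2R* (FBgn0038063, minus strand of 3R, 12550625 to 12595725) had its highest level outside the mature follicle-like class. The abd-A cluster, with 275 cells at 1 week and 331 at 6 weeks, had 789.8 CPM and 710.9 CPM. It held 67.8% of all *Octbeta2R* UMIs at 1 week and 53.96% at 6 weeks. The mature follicle-like class was next, with 273 UMIs at 1 week (285.5 CPM, 252.6 to 321.4) and 1395 at 6 weeks (460.8 CPM, 436.9 to 485.6). Without the chorion-rich cells the level at 1 week was 446.5 CPM (393.8 to 504.4). Against all other cells, at 17.3 and 21.0 CPM, the class was 16.5-fold higher at 1 week (25.8-fold without the chorion-rich cells) and 22.0-fold higher at 6 weeks. Muscle-like cells had 110 and 104 CPM, and Early-Mid FCs-like cells 1.61 and 1.98. A UMI was present in 44.9% of the mature cells at 1 week and 55.7% at 6 weeks, or in 25.2% and 27.7% after thinning. In germ cells-like cells these shares were 0% (up to 3.39%) and 2.30%, and 0% at both ages after thinning.

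*Nox* (FBgn0085428, plus strand of 2R, 16307269 to 16316485) lay the furthest above the rest of the ovary. The mature follicle-like class had 355 UMIs at 1 week (371 CPM, 334 to 412) and 1592 at 6 weeks (526 CPM, 500.3 to 552). Without the chorion-rich cells it had 491 CPM (436 to 552) at 1 week. All other cells together had 2.65 CPM at 1 week and 4.37 at 6 weeks. The class thus lay 140-fold (120.0 to 164) above them at 1 week, 185-fold without the chorion-rich cells, and 120-fold (110 to 132) above them at 6 weeks. It held 53.2% of all *Nox* UMIs at 1 week and 71.6% at 6 weeks, though it was 1.23% and 3.84% of the cells. Most of the remainder lay in the abd-A cluster (73.5 and 88.0 CPM) and the Lsd-1 cluster (30.5 and 36.8 CPM). Hemocyte-like cells had 0 UMIs at both ages, which with 3 counts as the limit allows 7.44 CPM at 1 week and 10.6 at 6 weeks. A UMI was present in 80.4% of mature cells at 1 week and 82.8% at 6 weeks, and in 37.4% and 38.5% after thinning. The shares in germ cells-like cells were 0% and 2.30%, and 0% and 1.15% after thinning. *Nox* overlaps *CG8060* on the other strand, and whether strand was used in counting is not given in the sources used here.

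*Mmp2*, the protease (FBgn0033438, minus strand of 2R, 9611139 to 9683858), was found in most mature cells and, at lower levels, across the ovary. The mature follicle-like class had 855 UMIs at 1 week, 894 CPM (835 to 956), and 3149 at 6 weeks, 1040 CPM (1004 to 1077). Since the chorion-rich cells had none, the level at 1 week without them was 1474 CPM (1377 to 1576). The class was 17.3-fold above all other cells at 1 week (28.5-fold without the chorion-rich cells) and 16.7-fold above them at 6 weeks. At 1 week the abd-A cluster was next at 654 CPM, then hemocyte-like cells at 305 and the Lsd-1 cluster at 300.3, whose order is within counting error. At 6 weeks hemocyte-like cells (630) and the abd-A cluster (625) were next and close, then the Hr4 cluster (534), Enteroendocrine-like cells (364) and the Lsd-1 cluster (335). Early-Mid FCs-like cells had 27.0 and 29.3 CPM. Through their number they still held 32.9% of all *Mmp2* UMIs at 1 week and 26.5% at 6 weeks, against 12.3% and 25.9% in the mature class. A UMI was present in 91.6% of mature cells at 1 week and 88.7% at 6 weeks, and in 63.6% and 54.6% after thinning, against 0.935% and 2.30% of thinned germ cells-like cells.

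*Timp*, the inhibitor (FBgn0025879, minus strand of 3R, 10203875 to 10213007), went the other way. The mature follicle-like class had 56 UMIs at 1 week (58.6 CPM, 44.2 to 76.0) and 389 at 6 weeks (128 CPM, 116 to 142). All other cells together had 153 and 163 CPM. The class was thus at 0.383 times their level at 1 week (0.451 without the chorion-rich cells, at 69.0 CPM) and at 0.787 times at 6 weeks. The highest levels were in Escort-like cells, the somatic cells around early germ cells, with 4169 CPM at 1 week and 2916 at 6 weeks, and in Muscle-like cells, with 1967 and 3274. Hemocyte-like cells had 506 and 1225 CPM, the abd-A cluster 348 and 447, and Early-Mid FCs-like cells 58.2 and 64.0. A UMI was present in 19.6% of mature cells at 1 week and 34.8% at 6 weeks, and in 5.61% and 7.65% after thinning. Germ cells-like cells had 7.48% (3.28 to 14.2) and 17.2% (9.98 to 26.8), and 1.87% (0.227 to 6.59) and 6.90% (2.57 to 14.4) after thinning. The interval of the mature class lay above that of germ cells-like cells at 6 weeks at full depth (30.04 to 39.9), whereas the intervals overlapped at 1 week and, after thinning, at both ages. The summed level of *Timp* in germ cells-like cells was 12.6 and 14.3 CPM. *Timp* lies within *Syn*, on the other strand, and *Syn* had 2 UMIs in the mature class at 1 week and 9 at 6 weeks.

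Counted over the 5 genes, 4 were at least 2-fold higher in the mature follicle-like class than in all other cells at both ages, and *Timp* was at least 2-fold lower at 1 week. Of all genes with at least 30 UMIs, 12.5% were higher by this measure at 1 week (24% without the chorion-rich cells) and 20.8% at 6 weeks, while 44% (35%) and 30.7% were lower. The clusters were not built on the 5 genes, but a class against the rest is a description and no test.

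**Figure D1:**
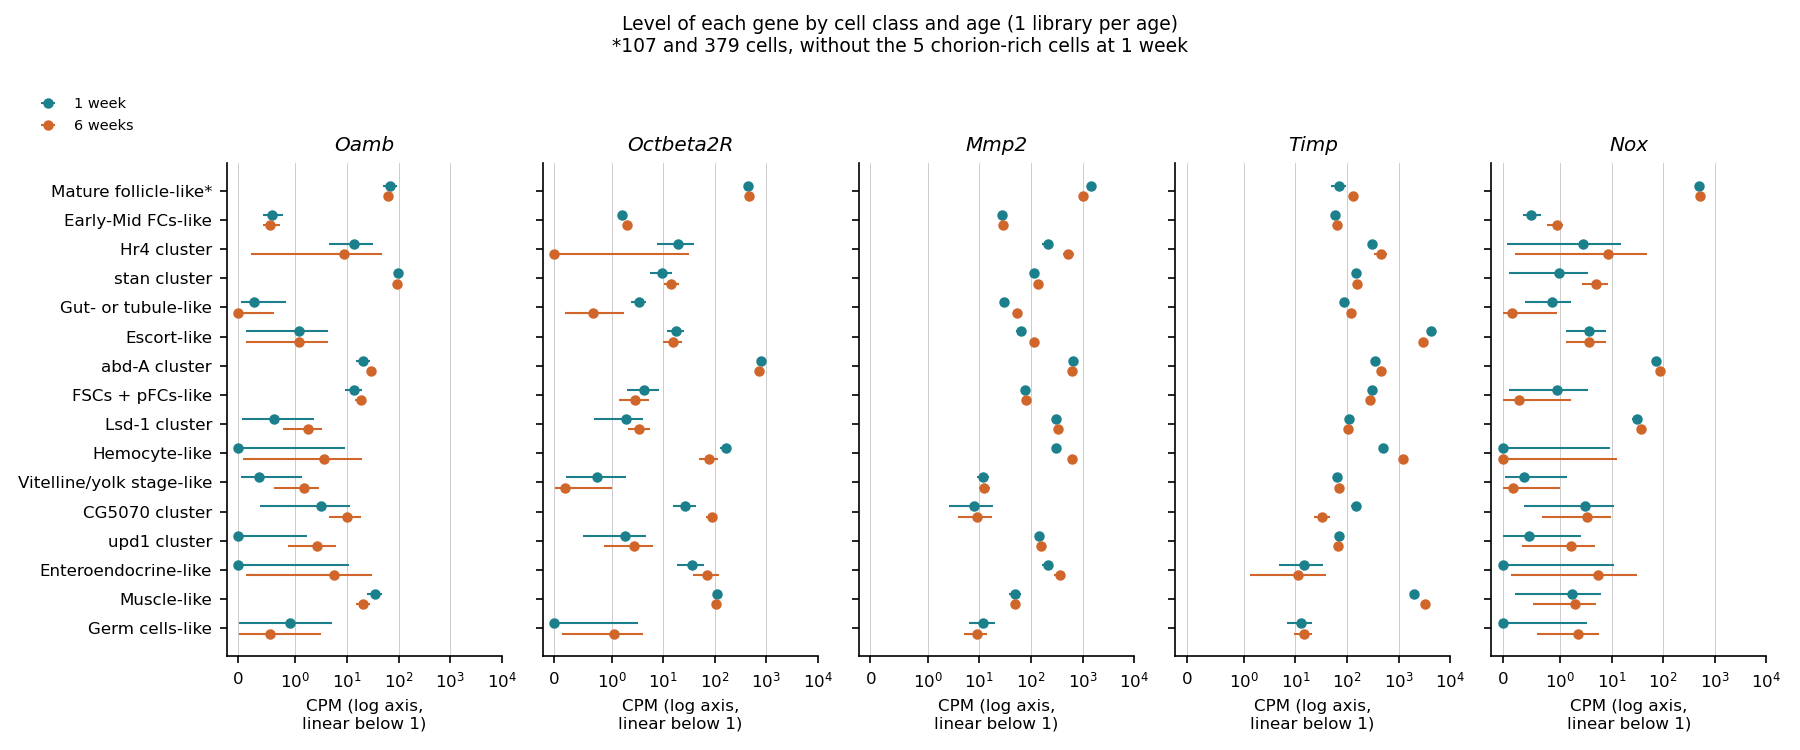
Level of each gene in CPM (log axis, linear below 1) in every cell class or unnamed cluster at 1 week (teal) and 6 weeks (orange), with exact 95% intervals for counting error. The mature follicle-like row leaves out the 5 chorion-rich cells at 1 week; Nox stands at 491 and 526 CPM there and under 100 CPM in every other row, while Timp is highest in Escort-like cells at 1 week (4169 CPM) and in Muscle-like cells at 6 weeks (3274 CPM).

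Within the mature follicle-like class the genes overlapped in the same cells to different degrees. Without the chorion-rich cells, the median cell held UMIs of 2 of the 5 genes at 1 week and of 3 at 6 weeks. All but 0.935% and 2.37% of cells held at least 1. At least 3 genes were found in 45.8% and 59.6% of cells, but after thinning in 7.48% and 8.71%. *Mmp2* and *Nox*, each found in most cells of the class on its own, were found together in 79 of 107 cells (73.8%) and 284 of 379 cells (74.9%). Whether this is more than their separate shares would give was not tested. Of the cells with *Oamb*, 100% also had *Nox* at 1 week and 97.7% did at 6 weeks, and 16 of 17 and 80 of 86 had *Octbeta2R*. *Mmp2* was found in 13 of these 17 cells and in 79 of these 86.

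The class was split further into 3 sub-groups, a step chosen after the data were seen. The Ilp8-high sub-group had 32 cells at 1 week and 140 at 6 weeks, led by *Tusp*, *Cyp313a4* and the chorion gene *Cp19*. The sub-group led by *CG12655* had 59 and 148 cells, and a shallow one with mitochondrial genes among its leading genes had 16 and 91. *Ilp8* was at 9342 and 10197 CPM in the first of these. In the CG12655 sub-group it was at 1421 and 389 CPM, with a UMI in 10 of 59 and 26 of 148 cells, and *CG12655* also led the Lsd-1 cluster outside the class. The name mature follicle-like therefore rests most firmly on the Ilp8-high cells.

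The receptors lay in the Ilp8-high cells. *Oamb* had 38 of its 40 UMIs there at 1 week and 179 of its 185 at 6 weeks, at 179 CPM (127 to 246) and 110 CPM (94.2 to 127). In the CG12655 sub-group it had 1 UMI at 1 week and 4 at 6 weeks. *Octbeta2R* was at 985 CPM (856 to 1128) and 732 CPM (691 to 774) in the Ilp8-high cells, against 141 and 123 in the CG12655 sub-group. The Ilp8-high level was above that of the abd-A cluster at 1 week (789.8 CPM, 751 to 830). At 6 weeks the intervals overlapped (abd-A cluster 710.9 CPM, 683 to 740). The protease was distributed the other way. *Mmp2* was at 1951 CPM (1799 to 2112) at 1 week and 1617 (1546 to 1691) at 6 weeks in the CG12655 sub-group, against 848 (729 to 982) and 490.1 (457 to 525) in the Ilp8-high cells. At 1 week the Ilp8-high level was above that of the abd-A cluster (654 CPM). At 6 weeks it was below that of hemocyte-like cells (630 CPM), the abd-A cluster (625) and the Hr4 cluster (534, 409 to 685, overlapping). *Nox* was found throughout, at 627 and 648 CPM in the Ilp8-high cells and 434 and 374 in the CG12655 sub-group, with the intervals of the sub-groups apart at both ages. *Timp* was at 56.6 and 89.4 CPM against 77.1 and 168. These sub-groups differed in depth, with medians of 4964 and 9779.5 UMIs in the Ilp8-high cells, 4171 and 5982.5 in the CG12655 sub-group and 1910 and 1858 in the shallow one. The part of depth in these differences was not tested.

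**Figure D2:**
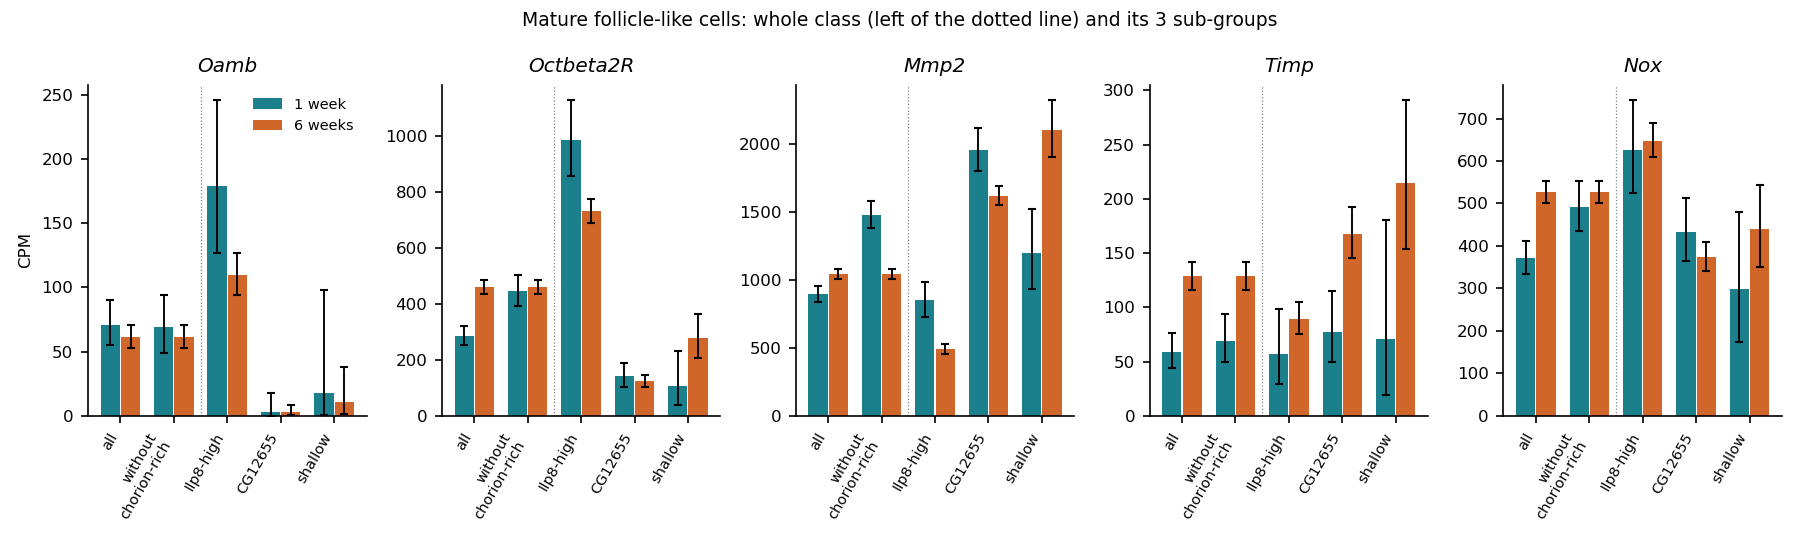
Level of each gene in CPM (bars, axis from 0) at 1 week (teal) and 6 weeks (orange) in the mature follicle-like class, with all its cells, without the 5 chorion-rich cells, and in its 3 sub-groups; error bars are exact 95% intervals for counting error. Oamb and Octbeta2R stand highest in the Ilp8-high cells (179 and 110 CPM for Oamb), while Mmp2 is higher in the CG12655 sub-group (1951 and 1617 CPM) than in the Ilp8-high cells (848 and 490.1 CPM).

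Between the ages, the level of *Oamb* in the mature follicle-like class was 71.1 CPM at 1 week and 61.1 at 6 weeks, a log2 ratio of -0.22 (-0.63 to 0.20). For *Octbeta2R* the log2 ratio was 0.69 (0.50 to 0.88), for *Nox* 0.50 (0.34 to 0.67), for *Mmp2* 0.22 (0.11 to 0.33) and for *Timp* 1.13 (0.73 to 1.56). By the limit of 0.5 on the log2 scale, 3 of the 5 genes were higher at 6 weeks (*Octbeta2R*, *Timp* and *Nox*) and 0 lower. This is what most genes of the class showed: 60% of 5577 genes were higher and 3.5% lower, and the median gene was at 0.61. The 39.3% of UMIs held by the chorion-rich cells at 1 week enter every one of these ratios.

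Without those 5 cells the median gene of the class was at -0.02, and the 5 genes separated. *Timp* was 0.90 higher at 6 weeks (0.43 to 1.41), from 69.0 to 128 CPM. Its level at 1 week rests on 40 UMIs, of which 70% came from 10 of the 107 cells. *Mmp2* was at 1474 CPM at 1 week and 1040 at 6 weeks, a log2 ratio of -0.50 (-0.61 to -0.39). The ratios of the other genes had intervals that spanned 0: *Oamb* at -0.17 (-0.67 to 0.36), *Octbeta2R* at 0.05 (-0.15 to 0.24) and *Nox* at 0.10 (-0.08 to 0.28). By the same limit, 1 of the 5 genes was higher and 1 lower, in a class where 13.7% of 5529 genes were higher and 13.9% lower. Differences of this size were thus common among all genes of the class. The make-up of the class also differed between the ages, since the Ilp8-high sub-group, with most UMIs of both receptors, held 212162 of 580033 UMIs at 1 week and 1632200 of 3027486 at 6 weeks.

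In the Ilp8-high and CG12655 sub-groups the ratios of *Mmp2* and *Timp* lay on the same sides of 0. The *Mmp2* ratio was -0.79 (-1.03 to -0.55) in the Ilp8-high cells and -0.27 (-0.40 to -0.14) in the CG12655 sub-group, but 0.81 (0.44 to 1.20) in the shallow one, where the level was 1199 CPM at 1 week and 2102 at 6 weeks. The *Timp* ratio was 0.66 (-0.19 to 1.65), 1.12 (0.51 to 1.80) and 1.60 (0.14 to 3.55), from 12, 24 and 4 UMIs at 1 week. In the Ilp8-high cells *Oamb* was at -0.71 (-1.22 to -0.16) and *Octbeta2R* at -0.43 (-0.64 to -0.21), whereas *Nox* was at 0.05 (-0.21 to 0.32). These *Oamb* levels rest on 38 UMIs at 1 week, of which 86.8% came from 10 cells. The 10 cells with the most *Octbeta2R* held 74.6% of its 209 UMIs in the sub-group at 1 week. For *Mmp2* the 10 highest of the 32 cells held 81.1% of 180 UMIs, and 1 cell alone held 57.

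Markers of other stages and cell types in the same cells are given here, with the chorion-rich cells left out. The 11 chorion genes were at 571 CPM at 1 week and 887 at 6 weeks, *Cp15* alone at 281 and 711 (1.34), with *yellow-g2* at zero at 1 week. The 10 vitelline membrane and yolk markers were at 359 and 163 CPM, with *Vml* at zero at 1 week. The sums for the lists of other follicle cells were the highest among the lists of other cells, at 6377 and 6196 CPM for the 4 Early-Mid FCs markers and 6310 and 6123 for the 5 FSCs + pFCs markers, which share *eya* and *Fas3* (*cas* was at zero at 1 week). In the classes named from them these lists had lower sums. They were 763 and 900 CPM in Early-Mid FCs-like cells and 3689 and 3773 in FSCs + pFCs-like cells. The sums of these lists thus do not set those classes apart from the mature class. Among the lists of cells outside the follicle, the summed level of the 6 Muscle markers in the mature class was 41.4 CPM at 1 week and 48.6 at 6 weeks, with 0 of them at zero. The 5 Escort markers were at 1145 and 1155 CPM, with *Wnt2* at zero at both ages. The 7 Hemocyte markers were at 241 and 343 CPM, with 6 of them at zero at 1 week and 3 at 6 weeks (*He*, *NimC1* and *eater*). The 6 germ cell markers were at 3.45 and 2.97 CPM, with 4 and 2 at zero. The other 9 lists lay between 1.72 and 93.1 CPM at 1 week and between 0.661 and 136 at 6 weeks. Their part in the *Timp* difference was not tested, nor was that of depth or of the mitochondrial share.

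In all cells of the ovary summed, each of the 5 genes was higher at 6 weeks. *Nox* was at 5.62 CPM at 1 week and 15.1 at 6 weeks, a log2 ratio of 1.42 (1.30 to 1.55). *Octbeta2R* was at 19.5 and 29.99 CPM, a ratio of 0.62 (0.55 to 0.69). *Mmp2* was at 58.4 and 82.2 CPM (0.49, 0.45 to 0.54), *Oamb* at 3.73 and 4.90 (0.39, 0.22 to 0.57) and *Timp* at 152 and 163 (0.09, 0.07 to 0.12). *Nox* and *Octbeta2R* were thus past the limit of 0.5, as 6.52% of 10056 genes were, and 0 of the 5 were lower, against 11.5% of genes.

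For every gene but *Timp* these ratios were smaller when the make-up of the libraries was held fixed. With the share of UMIs of each of the 30 clusters set to that at 1 week, the ratio of *Nox* was 0.46, of *Octbeta2R* 0.02, of *Mmp2* 0.22, of *Oamb* 0.02 and of *Timp* 0.11. Setting the shares to those at 6 weeks gave 0.46, 0.11, 0.16, -0.01 and 0.16. The change in shares on its own, with each cluster's level kept at that of 1 week, gave 0.96 for *Nox*, 0.51 for *Octbeta2R*, 0.33 for *Mmp2*, 0.40 for *Oamb* and -0.06 for *Timp*. The chorion-rich cells were kept in all of these values, and held shares were not computed without them. In the mature follicle-like class the *Nox* ratio was 0.50 with those cells and 0.10 (-0.08 to 0.28) without them. Their part in the 0.46 was not tested. Outside the mature follicle-like class, the ratio of *Nox* was 0.72 (0.52 to 0.92), with 312 UMIs at 1 week and 632 at 6 weeks. Of these, 146 and 296 UMIs lay in the abd-A cluster and 97 and 193 in the Lsd-1 cluster. Within these clusters, in that order, the ratios were 0.26 (-0.03 to 0.56) and 0.27 (-0.09 to 0.64), with intervals that spanned 0. Early-Mid FCs-like cells held 42 UMIs at 1 week (0.496 CPM) and 105 at 6 weeks (0.956 CPM). In the stan cluster the ratio was 2.37 (0.23 to 5.56), from 2 and 13 UMIs. Each remaining class held at most 9 UMIs at either age, with ratios in both directions. Cluster shares were not held fixed in the 0.72.

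**Figure D3:**
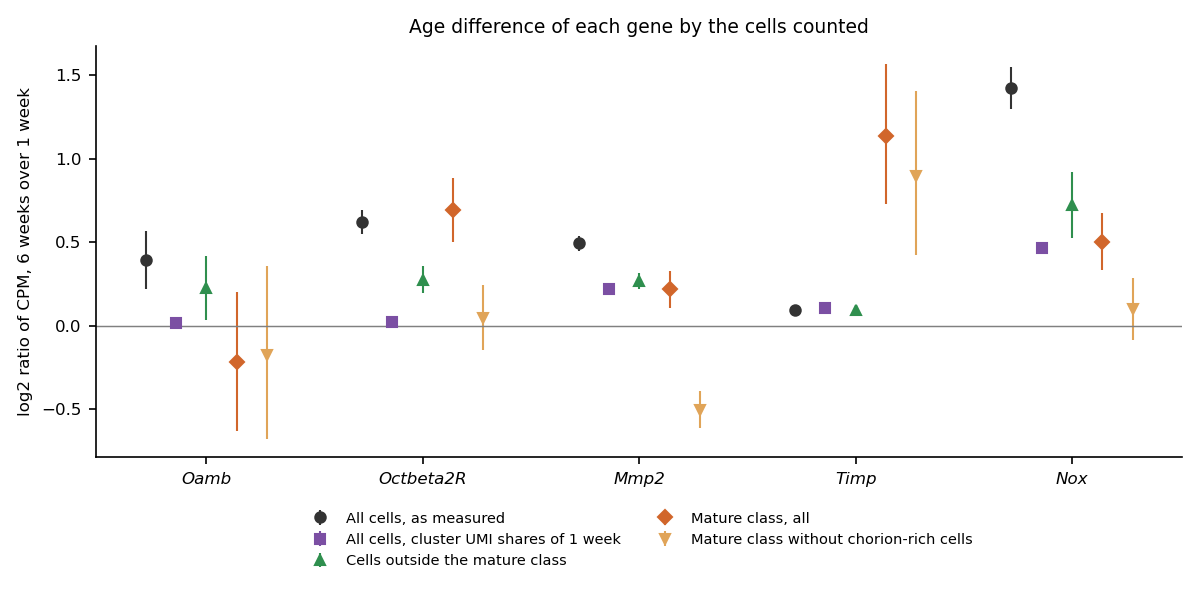
Log2 ratio of the level at 6 weeks over 1 week for each gene, in all cells as measured (black), in all cells with the cluster shares of UMIs held at those of 1 week (purple), in cells outside the mature follicle-like class (green), in the class (orange) and in the class without the chorion-rich cells (yellow); bars are exact 95% intervals for counting error, and the purple points have none. Nox goes from 1.42 as measured to 0.46 with shares held, and Mmp2 in the class from 0.22 to -0.50 without the chorion-rich cells. The black and purple points keep the chorion-rich cells.

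The other classes differed between the ages in their own ways. *Timp* was lower at 6 weeks in Escort-like cells (-0.52, -0.57 to -0.46) and higher in Muscle-like cells (0.74, 0.67 to 0.80) and hemocyte-like cells (1.28, 1.02 to 1.53). Its UMIs accordingly came to 38.6% from Escort-like cells at 1 week and 20.4% at 6 weeks, and to 12.6% and 27.7% from Muscle-like cells. *Mmp2* was higher at 6 weeks in hemocyte-like cells (1.05, 0.71 to 1.39), the Hr4 cluster (1.34, 0.83 to 1.84), Escort-like cells (0.87, 0.52 to 1.22) and Gut- or tubule-like cells (0.86, 0.63 to 1.09). In the abd-A cluster the interval spanned 0 (-0.07, -0.17 to 0.03). *Octbeta2R* was lower in the abd-A cluster (-0.15, -0.24 to -0.06), its main source, and in hemocyte-like cells (-1.06, -1.83 to -0.34). *Oamb* was lower in Muscle-like cells (-0.74, -1.40 to -0.08) and in the stan cluster the interval spanned 0 (-0.09, -0.37 to 0.19). The hemocyte-like class had 54 cells at 1 week and 18 at 6 weeks, and the Hr4 cluster 112 and 46, so these ratios rest on few cells.

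**Figure D4:**
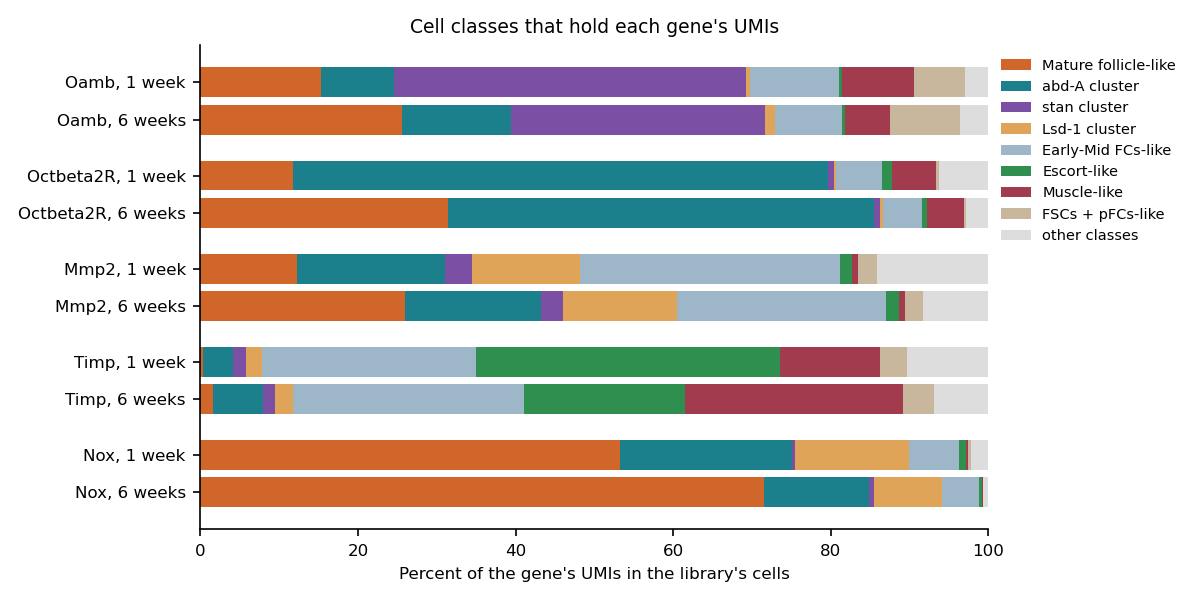
Percent of each gene's UMIs (horizontal axis) that came from each cell class (colours) at 1 and 6 weeks. The mature follicle-like class (orange, at the left) held 53.2% of Nox UMIs at 1 week and 71.6% at 6 weeks, and 11.8% and 31.5% of Octbeta2R UMIs, while Timp came almost wholly from other classes, with 0.31% and 1.62% from the mature class.

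Around the 5 genes, 50 genes of the pathway were followed from a list. The remaining octopamine and tyramine receptors were almost absent from the mature follicle-like class without its chorion-rich cells. *Octbeta1R* had 2 UMIs at 1 week and 7 at 6 weeks, *Octbeta3R* had 2 and 8, *Octalpha2R* had 3 and 26, *Oct-TyrR* had 0 and 2, and *TyrR* and *TyrRII* had 0 at both ages. At this depth *Oamb* and *Octbeta2R* were thus the octopamine receptors with most UMIs in the class. Elsewhere *Octalpha2R* was plentiful, at 78.1 and 83.3 CPM in all cells and 288 and 264 CPM in the stan cluster. Among the enzymes and transporters that make and load octopamine, *Tdc2*, the tyrosine decarboxylase, had 25 UMIs in these mature cells at 1 week (43.1 CPM) and 213 at 6 weeks (70.4 CPM), whereas *Tbh*, the next enzyme, had 0 and 7. *Vmat*, the vesicular transporter, lay in the abd-A cluster, at 215 and 373 CPM.

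Of the 50 genes in all cells, 3 were higher at 6 weeks (*Tdc2* at 1.26, *Vmat* at 1.07 and *Ilp8* at 1.92) and 2 lower (*TyrR* at -1.30 and *Blimp-1* at -0.50). This is 6% and 4% of the list, against 6.52% and 11.5% of all genes, with a list median of 0.07 against -0.01 over all genes. In the mature follicle-like class 36 had at least 30 UMIs, of which 15 were higher (41.7%, against 60% of all genes) and 5 lower (13.9%, against 3.5%), with a median of 0.39 against 0.61 over all genes. Once the chorion-rich cells were left out 3 were higher (8.33%, against 13.7% of all genes) and 8 lower (22.2%, against 13.9%). The higher ones were *Tdc2* (0.71), *Galphaq*, the G protein subunit of calcium signalling (0.52), and the protease *Mmp1* (0.59). *Tdc2* had 23 of its 25 UMIs at 1 week and 204 of its 213 at 6 weeks in the Ilp8-high cells. Its ratio there was 0.21 (-0.42 to 0.90). The lower ones were the phospholipase *Plc21C* (-1.06), *CaMKII* (-0.59), catalase *Cat* (-0.77), *sim* (-0.55), *br* (-1.31) and the basement membrane genes *vkg* (-1.38), *LanB2* (-0.56) and *trol* (-0.52). The list median was then -0.14 against -0.02 over all genes. Of these, *br* and *vkg* rest on 10 UMIs each at 1 week, and the intervals of *Galphaq* and *LanB2* span 0. In the Ilp8-high cells *Cat* was at -1.64 (-1.98 to -1.28). In the CG12655 sub-group it was at 1.35 (0.23 to 2.72), from 7 UMIs at 1 week. *trol* was at 0.15, -0.10 and -1.84 in the Ilp8-high, CG12655 and shallow cells. *Plc21C*, *CaMKII*, *sim* and *LanB2* were below 0 in all 3 sub-groups, but many of these intervals spanned 0. Those of *LanB2* did so in every sub-group, from 3, 6 and 2 UMIs at 1 week. So did those of *Plc21C* in the CG12655 and shallow cells, *CaMKII* in the CG12655 sub-group and *sim* in the shallow cells. *Sod3*, the dismutase that works beside *Nox*, was at 1596 and 1452 CPM in the class without its chorion-rich cells, and at 4213 CPM at 1 week with them.

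Of the 12 listed regulators of follicle maturity, all but *shd* had UMIs in the class at both ages. Again without chorion-rich cells, *peb*, the zinc finger factor Hindsight, was at 1079 CPM at 1 week and 978 at 6 weeks, *ftz-f1* at 709 and 741, and *Eip75B* at 1196 and 1507. *sim* was at 709 and 483 CPM, a ratio of -0.55 (-0.71 to -0.39), while *Ilp8* was at 4203 and 5721 CPM, a ratio of 0.44 (0.38 to 0.51). Within the sub-groups *sim* was at -0.70, -0.63 and -0.27 in the Ilp8-high, CG12655 and shallow cells, the last with an interval that spanned 0. *Ilp8* was at 0.13, -1.87 and 2.15 there, so its value over the class mixes sub-groups that differed in direction and in their share of the class at each age. *ttk* was at 290 and 349 CPM (0.27), *ct* at 240 and 185 (-0.37), *EcR*, the ecdysone receptor, at 219 and 172 (-0.34) and its partner *usp* at 63.8 and 45.6 (-0.48). *Blimp-1* was at 12.1 and 15.9 CPM (0.39), *br* at 17.2 and 6.94 (-1.31) and *shd*, the enzyme that makes active ecdysone, at 0 UMIs in both, which with 3 counts as the limit allows 5.17 CPM at 1 week and 0.991 at 6 weeks.

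**Figure D5:**
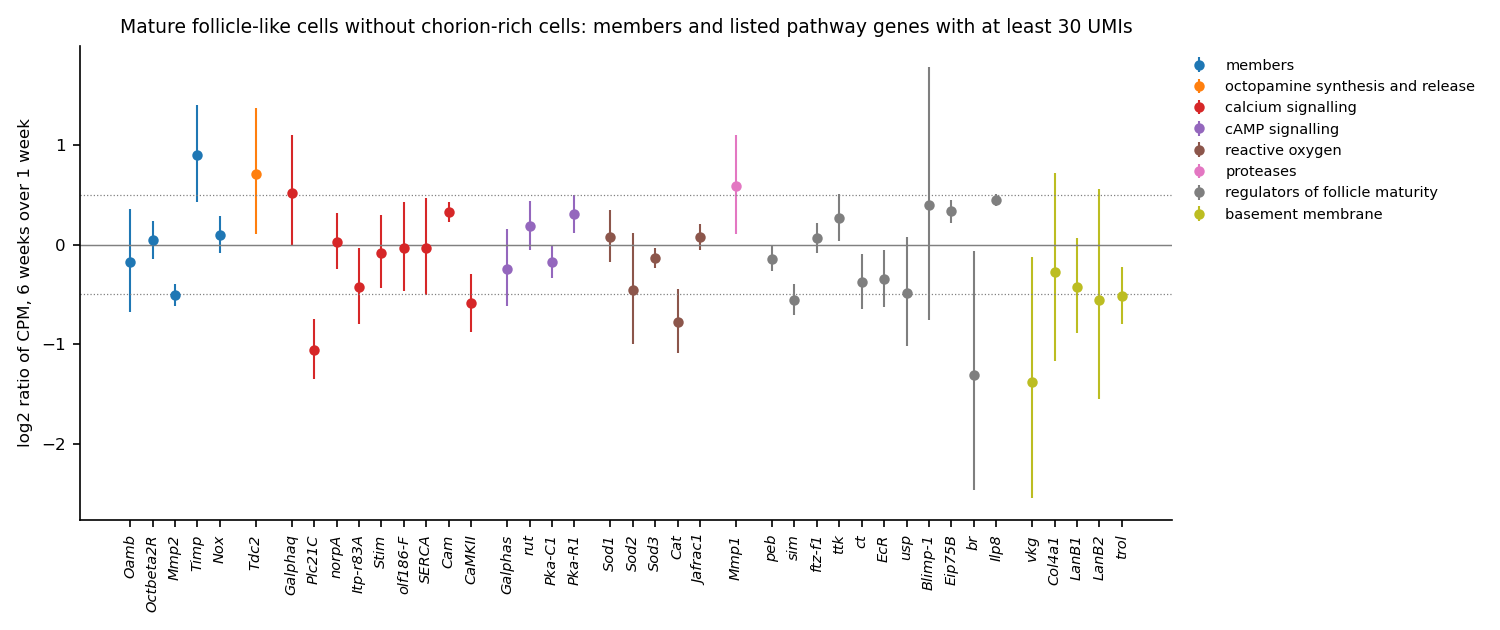
Log2 ratio of the level at 6 weeks over 1 week in the mature follicle-like class without chorion-rich cells, for the 5 genes and the listed pathway genes with at least 30 UMIs, coloured by group; bars are exact 95% intervals for counting error and dotted lines mark 0.5 in each direction. Timp (0.90) and Tdc2 (0.71) are among the few above the upper line, and Plc21C (-1.06), Cat (-0.77) and Mmp2 (-0.50) are among those below the lower one.

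The genes whose levels followed each of the 5 most closely were taken from 8400 genes over 60 profiles, 1 for each of the 30 clusters in each library. Profiles of the same library share its depth, and clusters differ in depth, so these correlations of log2(CPM + 1) are a description. *Oamb* was followed by *sim* (Pearson's r = 0.80) and by *Itp-r83A*, the calcium channel that opens on IP3 (0.74), then *CG31689*, *hts* and *hop*. *Octbeta2R* was followed by *Tsp42Ej* (0.80), *CG31313*, the antimicrobial peptide gene *Dro*, *CG44325* and *drk*. *Nox* was followed by *CG42822* (0.82), *CG12517*, *CG15394*, *CG16700* and *CG43134*. *Mmp2* was followed by *MTF-1*, the metal-responsive factor (0.81), *cora*, *Cip4*, *NKAIN* and *luna*, and *Timp* by *CG44245* (0.80), *Nrt*, *CG1674*, *CG9626* and *kon*. Of the 5 genes themselves, *Mmp2* and *Nox* were the closest pair (0.63), and *Timp* and *Nox* the least alike (0.12). *Timp* and *Syn*, the gene in which it lies, had r = 0.61.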

How the data were processed

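Per the labels, ovaries were run with the 10x Genomics Single Cell 3' kit (version 4), and the submitters' processing notes name Cell Ranger 9.0.0 and BDGP6. The methods name an additional kit version and do not tie it to an age. The deposited files hold raw UMI counts per gene and barcode, as the authors' pipeline wrote them.

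Cells with at least 500 genes, 1000 UMIs and at most 20% mitochondrial UMIs were kept, and doublets were left in. The 1-week cells were clustered on 2000 variable genes and 30 components (leidenalg 0.10.2, resolution 1, scikit-learn 1.9.0), without the 5 genes and the listed pathway genes, and each 6-week cell took the commonest cluster of its 30 nearest 1-week cells. Clusters were named where at least 3 markers of a list were raised 2-fold and found in at least 10% of cells, with a marker among the 10 leading genes or the whole list raised. Early-Mid FCs-like, the loosest name, needed only 3 of its 4 markers in at least 25% of cells. These rules were set after the clusters were seen. CPM came with exact Poisson intervals and ratios with exact binomial intervals (scipy 1.17.1), tested on simulated data. Gene places come from Ensembl release 115, in which 13879 of 13942 gene IDs were found.

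The 5 genes, the lists and the settings were chosen with earlier results of these data known. The genes named are the 5, every listed regulator of follicle maturity and octopamine receptor, the other listed genes past 0.5 on the log2 scale, and the 5 closest genes to each. *Sod3*, *Tbh* and *Syn* were named after their values were seen.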

Additional observations from a re-analysis of the deposited data

Results flagged for a closer look

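For *Octbeta2R* and *Timp* the log2 ratio of 6 weeks over 1 week had intervals for counting error on opposite sides of 0 in different cell classes. *Octbeta2R* was at 0.69 in the mature follicle-like class (0.05 without the chorion-rich cells) and at 1.71 in the CG5070 cluster, from 17 and 78 UMIs. It was at -1.06 in hemocyte-like cells and at -2.32 in Gut- or tubule-like cells, the latter from 36 and 4 UMIs. *Timp* was at 1.13 in the mature follicle-like class, 0.53 in the Hr4 cluster, 1.28 in hemocyte-like cells and 0.74 in the Muscle-like class. It was at -0.52 in Escort-like cells and at -2.15 in the CG5070 cluster, from 95 and 30 UMIs. With 1 library per age these differences between classes were not tested, and several rest on classes of under 60 cells.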

How the results depend on the processing

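No paired analysis was possible because each age had 1 library. Under every alternative run, 4 of the 5 genes were at least 2-fold higher in the mature follicle-like class than in other cells, except after thinning at 6 weeks, where *Oamb* was at 0.91 and 3 remained. The class was not made of the same cells in every run. Of its 112 and 379 cells, 39 and 157 stayed with libraries clustered together, and 61 and 228 with the marker gate. At resolution 2 it kept them all and grew to 292 and 589 cells. Age differences were less stable. In the class, ratios (log2, 6 weeks over 1 week) were for *Oamb* 0.21 at resolution 2, 0.62 with a marker gate, -1.59 thinned and -0.73 with chorion genes out of the totals. *Octbeta2R* was at 0.12 (resolution 2), 1.04 (libraries clustered together), 0.46 (doublets removed), 0.0653 (mean over cells), 0.92 (10% mitochondrial limit), 0.23 (no limit), 0.18 (no chorion genes), 0.0453 (no chorion-rich cells) and, reversed, -0.20 thinned. *Mmp2* was at 0.72 (clustered together), 0.0697 (doublets removed), -0.23 thinned, -0.0882 (gate), -0.16 (mean over cells), 0.55 (10% limit), 0.0031 (no limit), -0.30 (no chorion genes) and -0.50 (no chorion-rich cells). *Timp* stayed above 0, at 0.24 (resolution 2), 0.36 (gate) and 0.62 (no chorion genes). *Nox* was at 0.83 (resolution 2), 0.89 (clustered together), 0.23 thinned, 0.81 (gate), 0.11 (mean over cells), 0.29 (no limit), 0.10 (no chorion-rich cells) and, reversed, -0.0116 (no chorion genes). At resolution 2 *Timp* in the class over other cells at 1 week turned to 0.0356. In all cells, the 10% limit gave 1.12 for *Oamb*, 0.94 for *Octbeta2R*, 0.59 for *Mmp2*, 0.35 for *Timp* and 1.64 for *Nox*, and no limit gave 0.21, 0.46, 0.38, 0.0083 and 1.13. Thinning gave 0.28 for *Octbeta2R*, 0.54 for *Mmp2* and 0.0536 for *Timp*, the mean over cells gave 0.25 for *Octbeta2R* and 0.60 for *Mmp2*, and leaving out chorion-rich cells gave 1.58 for *Nox*. The class was 3.20% and 5.96% of cells at resolution 2, 0.460% and 1.63% clustered together, 0.759% and 3.26% with the 10% limit, 1.81% at 1 week with the gate and 1.79% at 1 week with no limit. Listed pathway genes higher at 6 weeks numbered 6 thinned, 8 by the mean over cells and 5 with the 10% limit, and 1 was lower with that limit and with a limit of 1 on the log2 scale. Both chorion alternatives were chosen after seeing the data. The causes were not tested.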
